A study of Mus musculus with 8 samples.

Results

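Complement components and their regulators were examined in the hippocampus of BTBR mice as 9 genes: C1qa, C1qb, C1qc, C1s, C2, C3, C4b, Masp2 and Serping1. They were taken from the Agilent mouse array by gene name, with every probe that is not a control, which gave 14 probes of the 41174 on the array and 9 of its 27373 gene names. RNA was measured from whole hippocampi of 4 B6 mice (C57BL/6J, labeled wild type) and 4 BTBR mice (genotype BTBR T+ Itpr3tf/J), with 1 mouse per single-color array. All mice were labeled male and 5 months old, and none received a drug. BTBR is an inbred strain with behavior that resembles autism, an absent corpus callosum and no known single causal mutation. B6 is a separate inbred strain and not a littermate control, and the labels also name C57BL/6J as the background of the BTBR samples. Expression is given as quantile-normalized log2 intensity, and a change as BTBR minus B6 on that scale, so that a change of 1 is a doubling.

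The complement system is a cascade of plasma and tissue proteins that tags surfaces for uptake by phagocytes. In the classical pathway the recognition molecule C1q, built from A, B and C chains, activates the proteases C1r and C1s, which cleave C4 and C2 to form an enzyme that splits C3. In the lectin pathway, mannose-binding lectin, ficolins or collectins take the place of C1q and the protease MASP-2 that of C1s. Serping1 encodes the C1 inhibitor, which blocks C1r, C1s and the MASPs. In brain, microglia make most C1q, and C1q and C3 take part in the removal of synapses during development.

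Each probe is a designed oligonucleotide of 60 bases, and its position is given on mm9, the build named in the scanner files. The 5 probes printed here, 5′ to 3′, are examples for the genes that the results turn on: the C1q chains that differ most in change, C4b, the second Masp2 probe and the second C2 probe.
C1qa, A_51_P181451, chr4:136452409-136452468, minus strand: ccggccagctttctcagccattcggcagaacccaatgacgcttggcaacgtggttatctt
C1qb, A_51_P351860, chr4:136436578-136436637, minus strand: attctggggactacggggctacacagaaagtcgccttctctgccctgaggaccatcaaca
C4b, A_51_P428708, chr17:34866361-34866420, minus strand: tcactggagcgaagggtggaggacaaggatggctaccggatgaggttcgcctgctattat
Masp2, A_51_P448466, chr4:147977799-147977858, plus strand: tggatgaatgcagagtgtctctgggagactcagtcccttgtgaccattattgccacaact
C2, A_52_P428699, chr17:35000126-35000301, minus strand: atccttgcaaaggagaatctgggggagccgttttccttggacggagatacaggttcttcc
The C2 probe is spread over 176 genomic bases, so that its sequence is not contiguous in the genome. The C4b probe is assigned by the array to RefSeq transcripts of both C4b and its neighbor C4a, and its signal cannot be split between these copies.

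Masp2 was up-regulated in the BTBR hippocampus, and C1qb, C1qc and C4b were down-regulated. C2 was also called higher, but its strains overlapped and the call held in 6 of 20 alternatives. C1qa, C1s, C3 and Serping1 were not called. C1qb, C1qc and C4b were each read by 1 probe. Whether the strains differ in sequence under a probe was not tested. A gene was called when limma, fitted over 27981 probes, gave a Benjamini-Hochberg adjusted p under 0.05 for at least 1 of its probes. By this rule 5 of the 9 genes were called, against a background of 10.1% of the 18398 gene names tested. Of the 14 probes, 12 passed the filter on dim signal and 7 were called, where 7.61% of all tested probes were called. Of these, 4 were higher in BTBR mice, against 3.31% of all tested probes, and 3 were lower, against 4.3%. The arrays of the strains did not overlap for 6 of the 12 probes, against 14.2% of all tested probes. Both counts include 1 Masp2 probe that was admitted through the BTBR arrays alone. These genes were chosen with results of these arrays known, so that the counts are a description. The called genes lie on chromosomes 4 and 17.

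**Figure D1:**
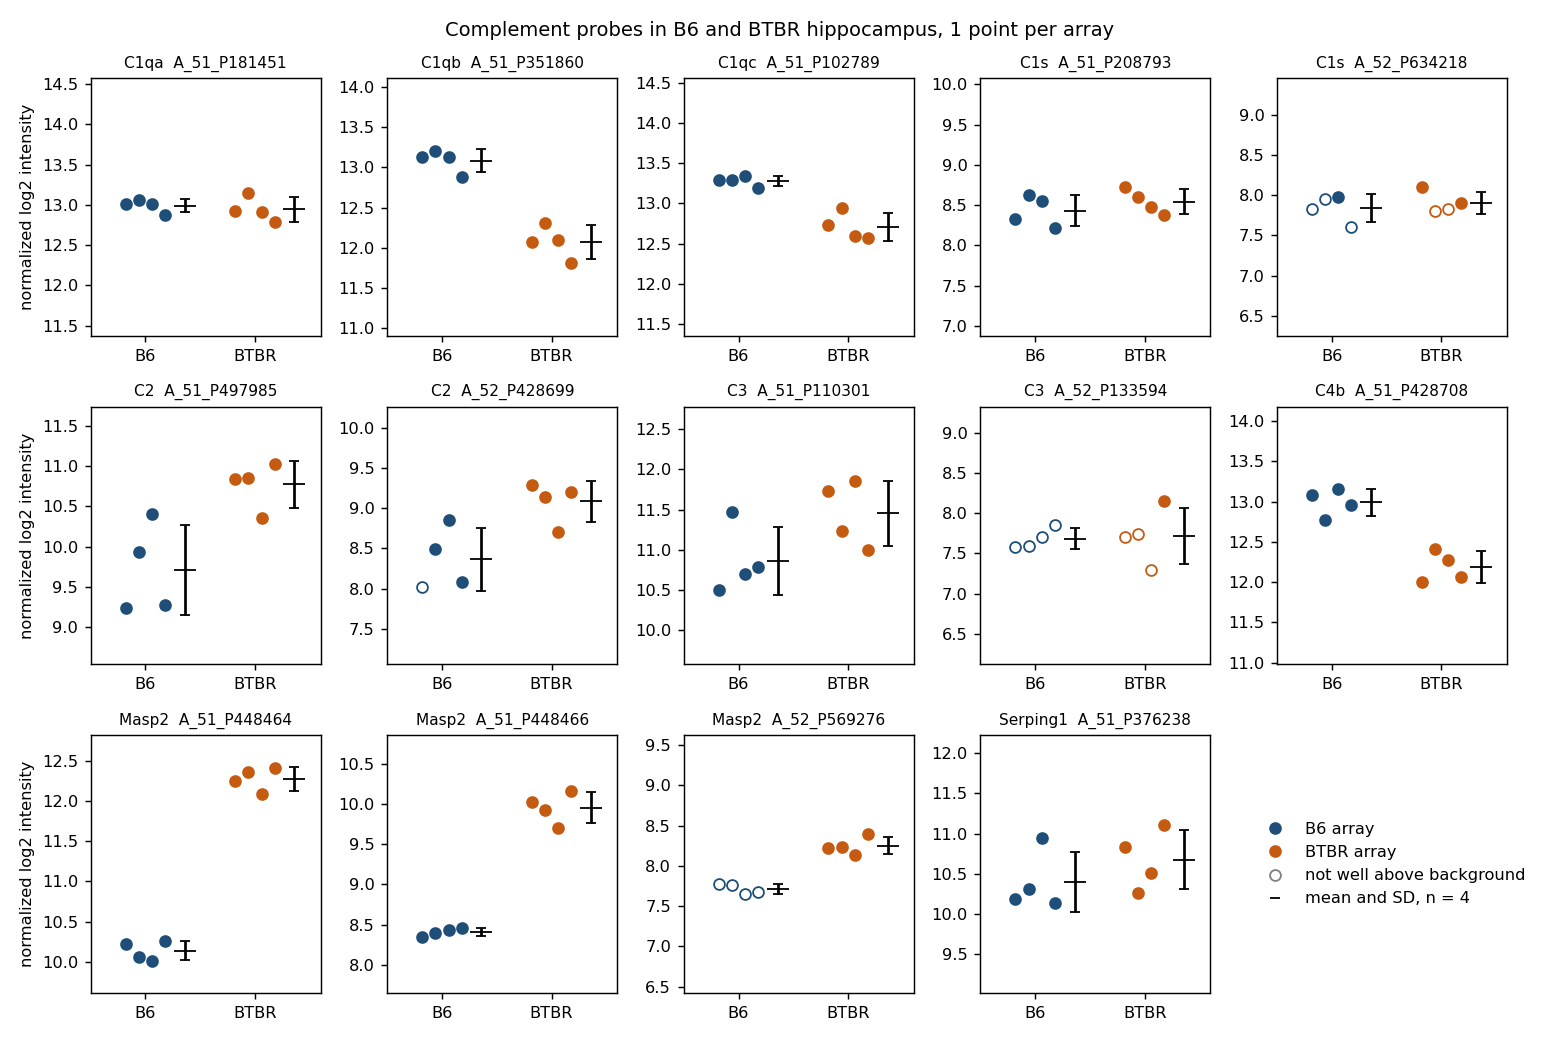
Normalized log2 intensity (vertical axis, each panel spanning the same number of log2 units) of the 14 complement probes on each of 4 B6 and 4 BTBR arrays, with open points not well above background and bars for the mean and SD. The strains separate fully for C1qb, C1qc, C4b and the 3 Masp2 probes. Of these, Masp2 A_52_P569276 was not well above background on any B6 array and was admitted through the BTBR arrays alone.

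**Figure D2:**
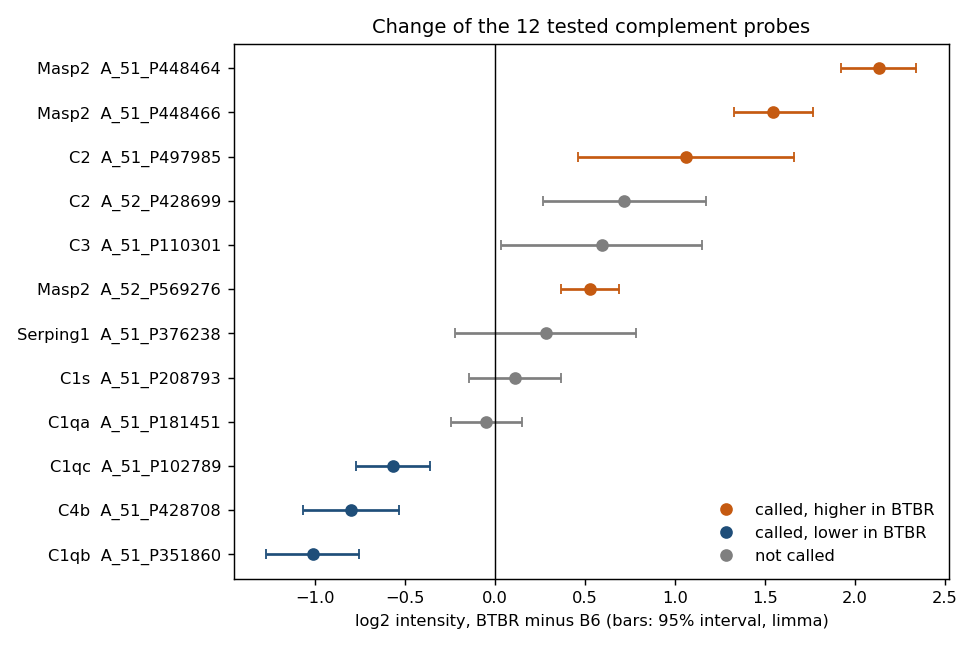
Change between strains (BTBR minus B6, log2 scale) of the 12 tested probes with 95% limma intervals. Masp2 A_51_P448464 lies farthest right at 2.13 and C1qb farthest left at -1.01.

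Several facts of the arrays bear on these genes. The share of probes well above background lay between 56.8% and 71.9% on the B6 arrays and between 61.9% and 71.5% on the BTBR arrays, and no member value was saturated. All 14 hippocampal neuron markers were measured and none was called, with a median change of -0.44. Their mean was 13.30 and 13.16 in BTBR replicates 1 and 2, below the B6 arrays at 13.88 to 14.29, and 14.24 and 14.06 in BTBR replicates 3 and 4. BTBR replicate 1 stood apart in thalamic markers, with a mean of 13.20 over 10 genes against 10.31 to 10.47 on the B6 arrays, and BTBR replicate 3 in blood markers, with 14.49 over 4 genes against 12.29 to 13.14. No thalamic or blood gene was called, and the median changes of these lists were 0.78 and 0.31. Without BTBR replicate 1, and likewise without BTBR replicate 2, 4 of the 9 genes were called and C2 was not (adjusted p = 0.108 and 0.107 from limma), whereas all 5 were called without BTBR replicate 3. The labels do not say how the mice were drawn from litters, and p-values measure the spread between these 8 mice.

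The 3 chains of C1q, whose genes sit side by side on chromosome 4, changed to different extents. C1qb, the B chain (NM_009777), measured 13.13, 13.20, 13.13 and 12.89 in B6 replicates 1 to 4 and 12.07, 12.31, 12.09 and 11.81 in BTBR replicates 1 to 4. Every BTBR array was below every B6 array. The mean fell from 13.08 ± 0.14 (SD, n = 4) to 12.07 ± 0.21 (SD, n = 4), a change of -1.01 (95% interval from -1.27 to -0.75, limma adjusted p = 0.000602), which is 0.496 of the B6 level. C1qc, the C chain (A_51_P102789, NM_007574, chromosome 4 from 136445766 to 136445825), measured 13.30, 13.29, 13.34 and 13.19 in B6 and 12.73, 12.95, 12.59 and 12.57 in BTBR mice. Here too the strains did not overlap, and the change was -0.57 (95% interval from -0.77 to -0.36, limma adjusted p = 0.00467).

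C1qa, the A chain (NM_007572), measured 13.01, 13.06, 13.02 and 12.88 in B6 and 12.92, 13.15, 12.91 and 12.79 in BTBR mice. Its arrays overlapped, with the highest and the lowest value both in BTBR mice. The change was -0.05 (95% interval from -0.24 to 0.15, limma adjusted p = 0.837), an interval that leaves out falls of the size seen for the B and C chains. The C1qb and C1qc probes are 9128 bases apart and the C1qc and C1qa probes 6583 bases. On the same array, the change of C1qb minus that of C1qa was -0.97, that of C1qc minus C1qa -0.52, and that of C1qc minus C1qb 0.44. In each of these 3 comparisons, chosen after the values were seen, the strains did not overlap (exact permutation test, two-sided, p = 0.0286 each and 0.0286 adjusted over the 3, the smallest that 4 arrays against 4 allow). Under the processed signal of the software, the deposited matrix and another background correction, the C1qb and C1qa changes still differed by between -1.04 and -0.95.

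Markers of microglia, the main source of C1q in brain, were lower in part. All 22 microglia genes were measured, and 18 were lower in BTBR mice by their brightest probe, with a median change of -0.15 against 0.01 over all gene names tested. Of the 22, 8 were called: 7 had a probe called lower and 2 a probe called higher, with Fcrls counted in both directions, where 5.88% of all gene names had a probe called lower and 4.53% one called higher. Trem2, a receptor of microglia, fell by 0.60 (limma adjusted p = 0.00234), whereas one of the probes of Cx3cr1, the fractalkine receptor, rose by 1.41 (limma adjusted p = 1.11e-05). The other and dimmer Cx3cr1 probe gave -0.10 and was not called. Fcrls rose by 1.09 at one probe and fell by 1.16 at another. The summed intensity of the list lay between 150425 and 166938 on the B6 arrays and between 117233 and 157149 on the BTBR arrays, and 1 of its genes, Itgam, is also a complement receptor. By mean log2 intensity the list lay between 11.61 and 11.70 on the B6 arrays and at 11.37, 11.65, 11.50 and 11.38 in BTBR replicates 1 to 4, so that it was lower than in every B6 mouse on 3 of 4 BTBR arrays. In BTBR replicate 2, where the list was at the B6 level, C1qb was 12.31, below all B6 arrays, and C1qa was 13.15, above all of them. Fewer microglia and less RNA per microglial cell cannot be told apart in whole tissue, and the part of these markers in the C1q values was not tested.

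C1s, the protease that C1q sets in motion, was dim. Its probe A_51_P208793 (NM_144938, chromosome 6 from 124480828 to 124480887) measured 8.33, 8.63, 8.55 and 8.22 in B6 and 8.73, 8.60, 8.47 and 8.37 in BTBR mice. The ranges overlapped in part, and the change was 0.11 (95% interval from -0.14 to 0.37, limma adjusted p = 0.678). The second probe, A_52_P634218, passed the background flag in 1 B6 mouse and 2 BTBR mice and was not tested, with means of 7.84 ± 0.17 (SD, n = 4) and 7.90 ± 0.13 (SD, n = 4). The current symbol of this gene is C1s1. Serping1, the inhibitor of C1s (A_51_P376238, NM_009776, chromosome 2 from 84605968 to 84607474), measured 10.18, 10.32, 10.94 and 10.13 in B6 and 10.83, 10.26, 10.51 and 11.11 in BTBR mice, so that B6 replicate 3 was above all BTBR arrays but one. The change was 0.28 (95% interval from -0.22 to 0.79, limma adjusted p = 0.581).

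Serping1 followed the meningeal markers from mouse to mouse. The mean of 14 meningeal genes was 10.82, 11.22, 11.82 and 10.72 in B6 replicates 1 to 4 and 11.60, 10.93, 11.25 and 11.95 in BTBR replicates 1 to 4. These values and those of Serping1 put the 4 arrays of each strain, and all 8 arrays together, in the same order. Of 72 pairs of a marker list and a tested member probe compared in this way, this was the 1 pair with the same order in both strains. In B6 mice, though not in BTBR mice, Serping1 also had the order of the choroid plexus and endothelium lists. None of the meningeal genes was called, their median change was 0.27, and their part in the Serping1 values was not tested.

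**Figure D3:**
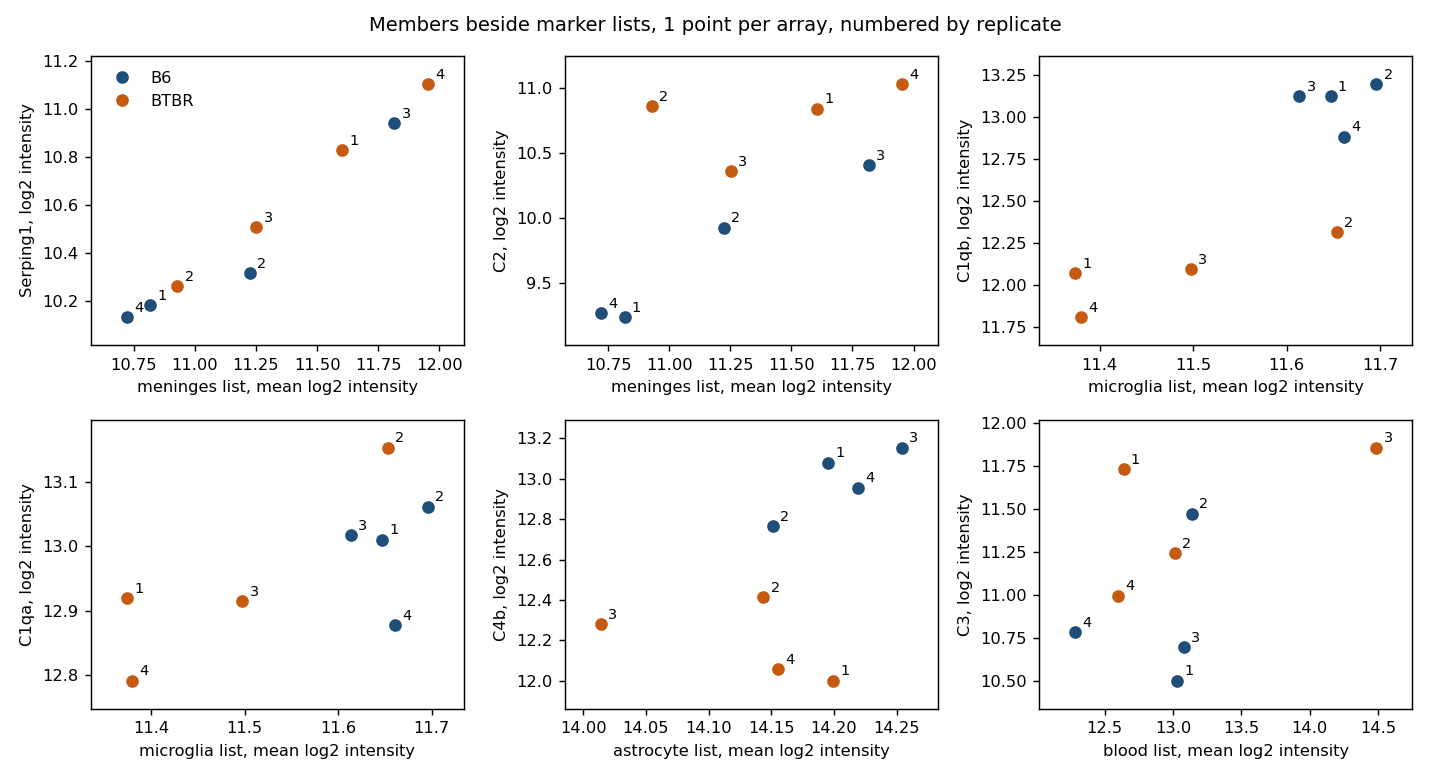
Log2 intensity of Serping1, C2, C1qb, C1qa, C4b and C3 (vertical axes) against the mean log2 intensity of a marker list (horizontal axes), with 1 point per array numbered by replicate. Serping1 and the meningeal list put the 8 arrays in the same order, and 3 of the 4 BTBR arrays lie below all B6 arrays in the microglia list, with BTBR replicate 2 among the B6 arrays at 11.65.

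C4b and C2, which encode the substrates of C1s and MASP-2, changed in opposite directions although their probes lie 133154 bases apart on chromosome 17, in the region of the major histocompatibility complex. C4b (NM_009780) measured 13.08, 12.77, 13.15 and 12.96 in B6 and 11.999, 12.41, 12.28 and 12.06 in BTBR mice, with no overlap. Its mean fell from 12.99 ± 0.17 (SD, n = 4) to 12.19 ± 0.19 (SD, n = 4), a change of -0.80 (95% interval from -1.07 to -0.54, limma adjusted p = 0.00275). It was -0.72 within slide 1, which held replicates 1 and 2 of both strains, with a limma adjusted p of 0.0514, and -0.89 within slide 2. The probe named C4a passed the background flag in 2 B6 mice and 1 BTBR mouse and was not tested. Astrocytes also make C4, and 15 astrocyte markers had a median change of -0.02. Of these, 1 gene was called higher and 2 lower, where 4.53% of all gene names had a probe called higher and 5.88% one called lower. Their mean lay between 14.15 and 14.25 on the B6 arrays and between 14.01 and 14.20 on the BTBR arrays. Gfap, the intermediate filament of astrocytes, was one of those called lower (-1.30 at its brightest probe, limma adjusted p = 0.00143). Aldoc, a glycolytic enzyme of astrocytes, gave -0.61 at its called probe (limma adjusted p = 0.00506) and -0.17 at a brighter one (limma adjusted p = 0.346), and the receptor Ntsr2 gave 0.50 (limma adjusted p = 0.00195). The part of these genes in the C4b values was not tested.

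C2 was read by 2 probes. At A_51_P497985 (NM_013484, chromosome 17 from 34999575 to 34999634) it measured 9.24, 9.93, 10.41 and 9.27 in B6 and 10.84, 10.86, 10.36 and 11.03 in BTBR mice. The strains overlapped, since B6 replicate 3 was above BTBR replicate 3, and the B6 mice spread more (SD 0.56) than the BTBR mice (SD 0.29). The change of 1.06 (95% interval from 0.46 to 1.66) passed the threshold narrowly (limma adjusted p = 0.0445, exact permutation p = 0.0571), and missed it with the slide as a block (limma adjusted p = 0.0571). A_52_P428699, 491 bases away, measured 8.02, 8.49, 8.86 and 8.08 in B6 and 9.29, 9.14, 8.71 and 9.19 in BTBR mice, with the same pair of arrays overlapping. It gave 0.72 (95% interval from 0.27 to 1.17, limma adjusted p = 0.0676) and, with the processed signal, 1.75 (limma adjusted p = 0.110), and the changes at the 2 probes differed by 0.34, which did not pass the test (exact permutation p = 0.0571). Over 20 alternatives the first probe was higher in BTBR mice in all 20 and called in 6. B6 replicate 3, the highest B6 array at both C2 probes, was also the highest B6 array for the meningeal list, whereas among BTBR mice the lowest array was replicate 3 for C2 and replicate 2 for the list. That list was between 10.72 and 11.82 on the B6 arrays and between 10.93 and 11.95 on the BTBR arrays, and its part in C2 was not tested.

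C3, the protein on which all complement pathways converge, varied from mouse to mouse. Its probe A_51_P110301 (NM_009778, chromosome 17 from 57343416 to 57343475), printed 10 times on the array and summarized by the median of its spots, measured 10.50, 11.47, 10.696 and 10.78 in B6 and 11.73, 11.24, 11.85 and 10.996 in BTBR mice. B6 replicate 2 was above 2 of the 4 BTBR arrays. The change was 0.59 (95% interval from 0.03 to 1.15), with a limma adjusted p of 0.237 and an exact permutation p of 0.114, and it was not called under any of 20 alternatives, where it lay between 0.46 and 0.80. BTBR replicate 3, the highest array for C3, was the one with the highest blood markers. Choroid plexus markers were higher in BTBR mice for all 11 genes tested (median 0.33) with none called, and ranged from 10.47 to 11.73 on the B6 and from 10.78 to 12.59 on the BTBR arrays. Of 12 endothelial genes 1 was called, against 10.1% of all gene names, and the median change of the list was 0.10. The called gene was Vwf, the von Willebrand factor gene, which rose by 0.97 and 0.88 at its tested probes (limma adjusted p = 0.00620 and 0.00370). The part of these markers in C3 was not tested. The other C3 probe, A_52_P133594, was well above background on no B6 array and 1 BTBR array and was not tested.

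Masp2 had the largest change of the 9 genes, and both of its probes that were measured in both strains were called. At A_51_P448464 (NM_010767, chromosome 4 from 147978429 to 147978488) it measured 10.22, 10.06, 10.02 and 10.26 in B6 and 12.24, 12.36, 12.08 and 12.41 in BTBR mice. The gap between the strains was many times the spread within either, and the mean rose from 10.14 ± 0.12 (SD, n = 4) to 12.27 ± 0.15 (SD, n = 4). The change was 2.13 (95% interval from 1.92 to 2.34, limma adjusted p = 1.35e-06), which ranked 82 by size among the 27981 probes. It was 2.16 within slide 1 and 2.11 within slide 2.

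The second Masp2 probe, A_51_P448466, lies 570 bases upstream and is assigned to the same transcript variant 2. It measured 8.34, 8.39, 8.43 and 8.46 in B6 and 10.02, 9.92, 9.71 and 10.16 in BTBR mice. Its change was 1.55 (95% interval from 1.33 to 1.77, limma adjusted p = 1.26e-05), a rise of 2.92-fold. The third probe, A_52_P569276 (NM_001003893, chromosome 4 from 147989121 to 147989180), is assigned to transcript variant 1 and lies 10632 bases downstream of the first. It measured 8.22, 8.24, 8.14 and 8.39 in BTBR mice and was not well above background on any B6 array, where the readings were 7.78, 7.76, 7.65 and 7.68. Set against the lowest signal that counted as measured on the B6 arrays, the BTBR mean at this probe was 1.33-fold higher. That ratio leaves out the spread between mice and is not a lower bound. The limma call and the fitted change of 0.53 (0.29 with the deposited matrix) are set against background readings, so that no size is read from them. This probe passed the filter through the BTBR arrays alone.

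The sizes of the Masp2 changes depended on the signal and scaling, which were changed together. As reported, the first probe changed by 0.58 more than the second (exact permutation p = 0.0286, 0.0381 adjusted over the 4 pairs of probes compared). Differences from the third probe are not read here, since its B6 values lie at background. When the processed signal was used instead, after dividing by the 75th percentile of the array, the changes of the first and second probes were 2.35 and 2.46, and the difference between the first and second no longer passed the test (-0.12, exact permutation p = 0.343). The first and second probes stayed higher in BTBR mice and were called under all 20 alternatives. Besides MASP-2, the gene is known to encode MAp19, a short product without the protease part. The first and second probes are assigned to another transcript variant than the third, and no probe was matched to either product. A rise of the RNA for the protease can therefore not be read from the first and second probes.

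**Figure D4:**
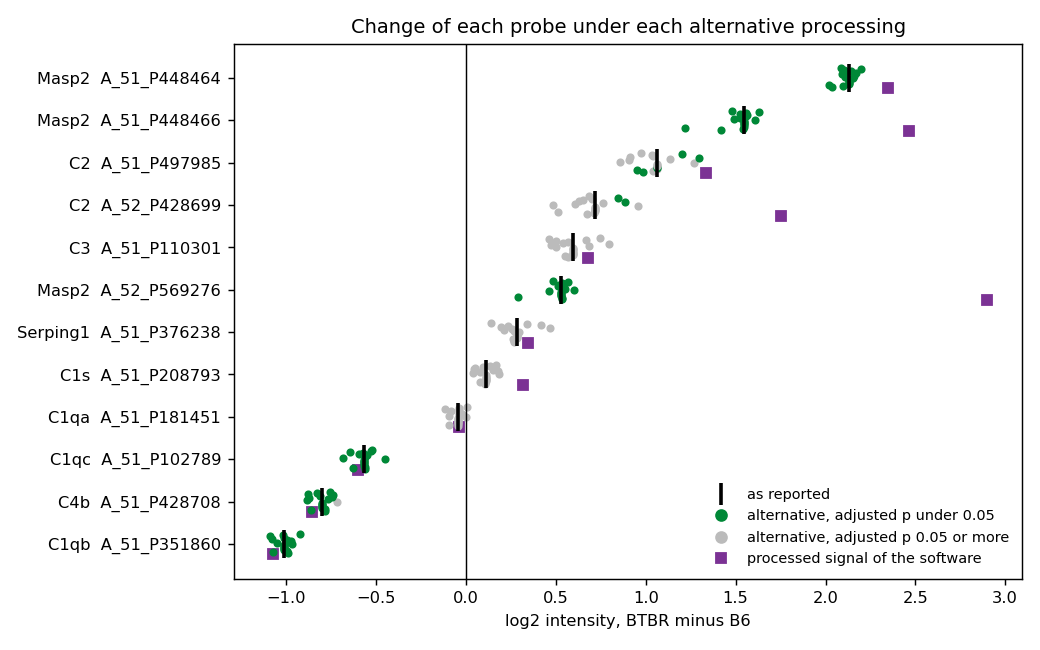
Change of each tested probe (BTBR minus B6, log2 scale) as reported (black bar) and under each alternative (points, green where the limma adjusted p was under 0.05; squares, processed signal of the software). C1qb, C1qc and the first and second Masp2 probes keep their direction and call throughout. The third Masp2 probe, A_52_P569276, was not well above background on any B6 array, so that no size is read from its points.

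The other genes of the pathway were called at close to the background share, which was 10.1% of all gene names in either direction. A list of 60 names, older synonyms among them, had 50 on the array, of which 31 were tested. Limma called 3 of these lower and 0 higher in BTBR mice, where 5.88% and 4.53% of all gene names had a probe called lower and higher; at an unadjusted p under 0.05 the counts were 7 lower and 1 higher, against 12.4% and 12% of all gene names. The median change was -0.03, against 0.01 over all gene names. No regulator was called among 14 tested, nor any of 5 genes of the alternative and terminal pathways.

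Among recognition molecules and early proteases, Colec11, a collectin that starts the lectin pathway, was called. It measured 9.56, 9.74, 9.64 and 9.78 in B6 and 8.80, 8.92, 9.02 and 9.17 in BTBR mice, a change of -0.70 (limma adjusted p = 0.00139) with no overlap. The mannose-binding lectins were not tested, since Mbl1 was well above background on 0 of 8 arrays and Mbl2 on 1. Masp1, which encodes the proteases MASP-1 and MASP-3, changed by 0.20 at its brightest probe (limma adjusted p = 0.316). C1ra and C1rb, which encode the partner of C1s, changed by 0.01 each (limma adjusted p = 0.974 and 0.973).

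Both calls among the receptors were lower in BTBR mice. C5ar2, a receptor for the fragment C5a, measured 9.32, 9.36, 9.19 and 9.28 in B6 and 8.35, 8.44, 8.40 and 8.30 in BTBR mice, with narrow groups and no overlap. Its change was -0.91 (limma adjusted p = 2.72e-05). Itgam, a chain of complement receptor 3 on microglia, fell by 0.40 at one probe (limma adjusted p = 0.0127) and gave -0.05 at another (limma adjusted p = 0.923). The receptor for C3a, C3ar1, gave -0.10 (limma adjusted p = 0.802) and the only C5ar1 probe stayed near background on all 8 arrays. Among the regulators, Clu gave 0.05 and was not called, and C4bp, a cofactor in the breakdown of C4b, gave -0.84 (limma adjusted p = 0.0833) without overlap between the strains.

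**Figure D5:**
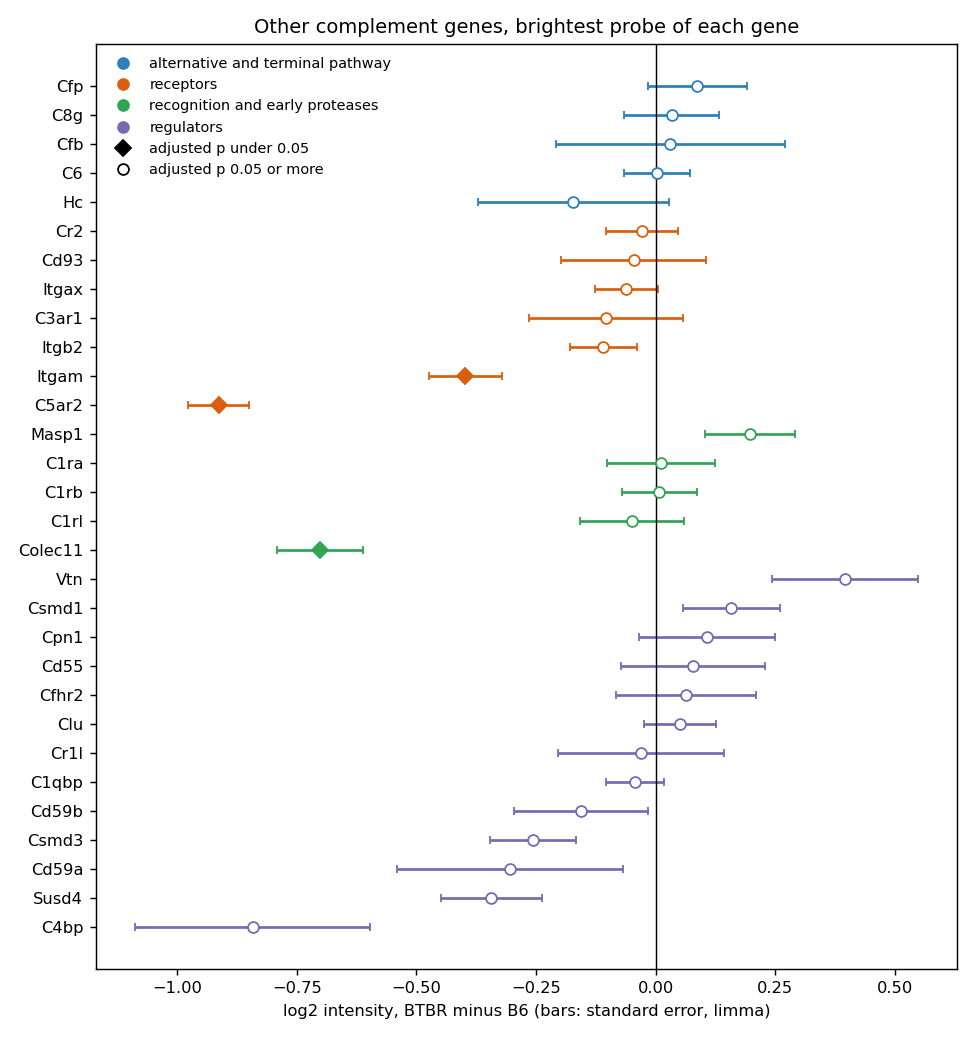
Change (BTBR minus B6, log2 scale, with limma standard errors) of the brightest probe of the other complement genes tested, colored by role and with 1 tested gene, which was not called, left out. Filled diamonds mark the 3 genes called, C5ar2, Colec11 and Itgam, all to the left of 0.

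For each called gene, the 5 gene names with the most similar profile over the 8 arrays were listed, by the root mean square distance of log2 values centered on their own mean. For Masp2 these were Wdfy1, TC1774168, Hddc3, 1810037I17Rik and Tescl, at distances from 0.14 to 0.19, with changes from 1.89 to 2.34. C1qb was nearest to Cep63, Emp2, Gm8096, Asah2 and Sys1, at distances from 0.07 to 0.11. C1qc was nearest to A530058N18Rik, Dbndd2, 2610044O15Rik8, AU020206 and Sclt1, from 0.04 to 0.07. For C4b the names were Zfp68, Rab23, Rprd1b, AK036131 and Nim1, from 0.11 to 0.12. The names nearest to C2 were H2-Ab1, Mpzl2, Cd74, Igf2 and Ptgds, at distances from 0.17 to 0.26. H2-Ab1 and Cd74 encode a chain and the invariant chain of the class II complex, and their changes of 1.07 and 1.17 had limma adjusted p of 0.0596 and 0.0741. No other C1q chain was among the 5 nearest to C1qb or C1qc. This distance includes the strain change itself, so that the unequal changes given above already set the chains apart. It does not show how the chains vary together within a strain.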

How the data were processed

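The authors deposited spot intensity values of 8 single-color Cy3 arrays, which per the file headers were extracted by Feature Extraction version 10.7.3.1 (the submitters' processing notes name version 9.1), unscaled between arrays, and a processed signal background subtracted and detrended within each array. A matrix of log2 values, made by the authors with Agi4x44PreProcess defaults and quantile normalization, was also deposited, with signal column and offset not given in the sources used here. The other deposited columns used hold flags for outlier spots, saturation and signal well above background.
Mean intensity minus median local background, at least 0.5, plus 50, was log2 transformed and quantile normalized over the arrays with R 4.3.3 and limma 3.58.1. Spots with an outlier flag and control spots were left out, replicate spots were summarized by their median, and a probe was tested when well above background on 75% or more of the arrays of a strain. Limma fitted strain alone. The study ranked genes by rank product, which permutes probes and was not run here. Single values were compared with exact permutation tests. The fit was tested on simulated data with known changes. The number of arrays, 4 per strain, limits the precision. Alternatives were another background correction, scaling, matrix, filter, flag rule, variance option, slide and replicate blocks, each slide, and each array left out.
All probes of the members were named. Of other complement genes and marker lists (microglia, astrocyte, choroid plexus, meninges, endothelium, blood, hippocampal neuron, thalamus, from general knowledge), those called were named, at most 3 per marker list. C4a, C4bp, C3ar1, C5ar1, Clu, Mbl1, Mbl2, Masp1, C1ra and C1rb were named after their values were seen. One tested gene of the list is counted but not reported here by name. Members and lists were chosen with earlier results of these data known. Gene names were checked against RefSeq (GRCm38.p6): 8 of 9 members are current symbols and C1s is a synonym.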

Additional observations from a re-analysis of the deposited data

How the results depend on the processing

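Over 20 alternatives the number of member probes called lay between 5 and 8, against 7, and over 21 alternatives that of member genes between 3 and 5, against 5; it was 3 within slide 1, where C2 and C4b missed the threshold. With 1 array left out in turn, 6 to 8 probes and 4 to 5 genes were called. Between 3 and 4 other complement genes were called. C1qb, C1qc and the Masp2 probes A_51_P448464 and A_51_P448466 kept direction and call in all 20 alternatives; A_52_P569276 could not be tested where every array had to be well above background. C2 at A_51_P497985 was between 0.86 and 1.34, with adjusted p from 0.0107 to 0.474 in limma. It was not called without B6 replicates 1, 2 or 4 or BTBR replicates 1, 2 or 4 (0.90 to 1.13), but A_52_P428699 was called without B6 replicate 3 (0.88) and without BTBR replicate 3 (0.85). C1qa changed sign to 0.00042 within slide 1 and to 0.0042 without BTBR replicate 4, neither called. No member probe differed in change between slides at an unadjusted p under 0.05 (0 probes in limma). The replicate number as a block gave 6 member probes, 4 member genes and 4 other complement genes, with C2 at a limma adjusted p of 0.121. Arrays of the same number deviated together for replicates 2 and 4 (correlations of 0.51 and 0.39) but not for 1 and 3 (-0.14 and -0.10). So few correlations cannot settle whether the numbers pair the mice. With the processed signal, differences between probes reversed: -0.41 for the C2 probes and -0.12 for A_51_P448464 and A_51_P448466 of Masp2; the cause was not tested. The pairs with A_52_P569276 gave -0.55 and -0.43, from which nothing is read since that probe was at background in B6. The C2 probes differed by 0.44 with the deposited matrix and by 0.31 with normexp (exact permutation p = 0.0286 each). Signal over background limits the dim probes of C1s, C3 and Masp2.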
